A study of Bos taurus with 45 samples.

Results

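The balanced group (BG) is the name given to heifers whose mean ruminal pH was similar before and after the last rise in dietary grain. It consisted of 5 beef heifers, animals 172, 294, 246, 362 and 258. The comparison described here set the ruminal papillae of these heifers on 89% grain against those of the same heifers on 72% grain, which used 10 of the 45 samples in the series, 1 per heifer and diet. The heifers were chosen by animal number, as the sample labels carry no pH group and the deposited values carry no pH. All were labelled healthy and were Angus-Hereford cross-bred yearling heifers moved stepwise from forage to barley grain. The 72% diet was fed on days 13 to 16 and the 89% diet on days 21 to 29, with a further grain step between them. Biopsies were taken sooner after the start of the 72% diet than after that of the 89% diet. Diet, time on trial and time on the diet therefore cannot be told apart. The labels write 3%, 75% and 92% for what the study calls 0%, 72% and 89% grain, and the latter are used. BG samples on 0% grain (days 1 to 4) and the other 10 heifers on the same diets served as comparisons. Those 10 pool heifers with falling and with rising ruminal pH, which the study lists by animal number but the labels do not tell apart.

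The rumen is lined by a stratified squamous epithelium raised into papillae, which absorbs the short chain fatty acids made by microbial fermentation and keeps microbes out of the tissue. Its basal cells divide, its middle layers transport and metabolize fatty acids, and its outer layer cornifies and is shed. More grain means faster fermentation and more acid, and heifers differ in how far ruminal pH then falls. A papilla also holds vessels, connective tissue and immune cells, and in RNA from whole papillae a smaller number of one kind of cell and less RNA per cell cannot be told apart.

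Each sample gave one value per gene in reads per 1000000 reads (RPM), for 24616 genes. Counted in 1000000 reads (M), the 10 samples held 30.77 ± 3.96 M reads on genes (SD, n = 10), from 24.4 to 37.1 M, with 30.91 ± 4.52 M on 72% grain and 30.63 ± 3.84 M on 89% grain (SD, n = 5 each). These totals are above the number of reads per library that the study gives, and the unit counted (read ends or pairs) is not given in the sources used here, so they serve as relative depths. The 10 most abundant genes took between 16.65% and 18.96% of the reads. Within a diet, the median correlation of a sample with the other 4 BG samples, over genes on the log2(RPM + 1) scale, was 0.981 to 0.983 on 72% grain and 0.974 to 0.984 on 89% grain. On 0% grain it was 0.972 to 0.975 for 4 heifers and 0.96 for heifer 172. A total of 11516 genes had RPM above 1 in all 15 heifers on at least 1 diet and were tested.

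No gene passed the threshold between 72% and 89% grain in BG (limma with the heifer as a block, 0 of 11516 genes, 0.0%, with adjusted p below 0.05 and over 1.5-fold change). The smallest adjusted p was 0.315. At an unadjusted p under 0.05 there were 530 genes (4.6% of those tested), of which 361 were higher on 89% grain (3.13%) and 169 were lower (1.47%). With no gene changed, a share of about 0.05 would be expected. The edgeR quasi-likelihood test on the recovered reads called 0 genes too, with 526 at an unadjusted p under 0.05, whereas DESeq2 called 8, all lower on 89% grain. Of those 8 genes, 6 were lower in all 5 heifers, and *FOSB* was one of them.

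The estimates were narrow enough to bound most genes. The 95% limma interval of the change lay within 1.5-fold in both directions for 10715 genes (93.0%) on the log2(RPM + 1) scale, and its median half-width was 0.23 on the log2 scale. Bounds were wider for rarer transcripts. Of the 773 genes with a mean under 3 RPM, 83.8% had such an interval, compared with 97.3% of the 1557 genes at 100 RPM or more. On this scale, which understates the change of low genes, 38 genes had an estimated change beyond 1.5-fold, 18 higher and 20 lower on 89% grain. With a pseudocount of 0.1 there were 77 such genes (49 and 28), with 86.4% of genes bounded, and edgeR and DESeq2 gave 83 and 85.

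**Figure D1:**
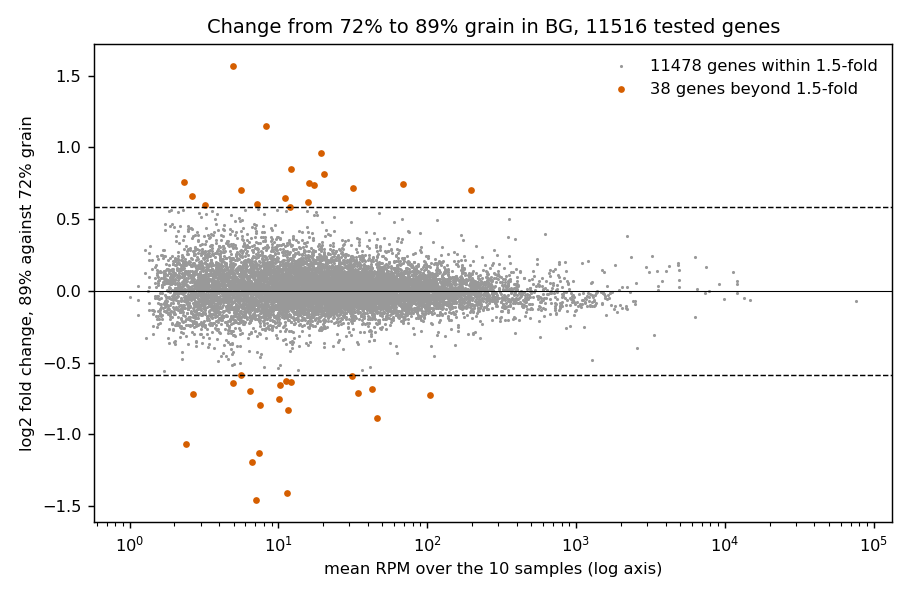
Fitted log2 fold change (89% against 72% grain, 5 BG heifers) of each of 11516 genes, against its mean RPM over the 10 samples on a log axis. Fold changes are of RPM + 1. Dashed lines mark 1.5-fold, and 38 genes (orange) lie outside them, 18 above and 20 below.

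Few genes had the same direction in all 5 heifers. A total of 415 genes (3.6%) were higher on 89% grain in all 5 heifers and 267 (2.32%) were lower in all 5. With no change and independent signs, a share of 0.0625 would have the same direction in all 5, counting higher and lower genes. These counts are near that share and do not show that the heifers disagreed. The values of the diets did not overlap for 20 genes that were higher (0.174%) and 12 that were lower (0.104%). Over all 11516 genes together, the heifer accounted for 61.4% of the variance in the 10 samples and the diet for 7.7%. With no effect of either, their 4 and 1 of 9 degrees of freedom would give 44.4% and 11.1% on average.

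Among 18 genes that could be paired with a name or a description, 4 had an unadjusted p under 0.05, and none passed the adjusted threshold. *FOSB*, *BMP6* and *VNN1* were lower on 89% grain, and *CYP1B1* was higher. The study names *FOSB*, *BMP6* and *VNN1* as detected in all heifers on 0% grain only. That choice used these same samples, so low values on 72% and 89% grain were not independent of it. How far it bears on the change from 72% to 89% grain was not tested. The 18 included 16 with a symbol, and 16 of the 18 passed the filter on low values. For none of them did the diets separate without overlap.

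*FOSB* (ENSBTAG00000008182) encodes a subunit of the AP-1 transcription factor and is one of the immediate early genes that are switched on within minutes of a stimulus. Its level on 72% grain was 4.55 RPM in heifer 172, 0.85 in 294, 6.34 in 246, 4.47 in 362 and 2.37 in 258, and on 89% grain it was 0.937, 0.755, 1.15, 0.548 and 2.01 RPM in the same order. All 5 heifers were lower on 89% grain, although heifers 294 and 258 differed little, and the lowest sample still held 17 reads. The mean went from 3.72 ± 2.13 to 1.08 ± 0.565 RPM (SD, n = 5), a log2 fold change of -1.07 ± 0.28 (SE, 95% interval -1.7 to -0.43) with a limma unadjusted p = 0.00407 and adjusted p = 0.977. On the read scale edgeR and DESeq2 gave -1.65 and -1.66. The level on 0% grain was 16.6 ± 12.1 RPM (SD, n = 5), and the step from there to 72% grain passed the threshold (log2 fold change -1.73, limma adjusted p = 0.0198, lower in 5 of 5 heifers). That call was lost without the block (adjusted p = 0.151) and without heifer 294, 246 or 258 (0.0535 to 0.0592). It was also not independent of how *FOSB* was chosen, as a gene detected in all heifers on 0% grain only. In the other 10 heifers *FOSB* averaged 4.25 ± 3.04 RPM with 72% grain and 15.7 ± 23.1 RPM with 89% grain (SD, n = 10), and it was lower on the latter in 6 of them. The change in BG was not distinguishable from theirs (difference -1.65 ± 0.87 on the log2 scale, SE, limma adjusted p = 0.999; exact permutation test over heifers, two-sided, p = 0.125).

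*BMP6* (ENSBTAG00000019234), a secreted growth factor of the bone morphogenetic protein family, had 5.74 RPM in heifer 172, 0.963 in 294, 4.3 in 246, 3.11 in 362 and 4.18 in 258 on 72% grain. On 89% grain the values were 2.42, 1.32, 1.26, 1.32 and 1.97 RPM. Heifer 294, which had the least transcript on 72% grain, was the only one that was higher on 89% grain. The mean was 3.66 ± 1.77 and 1.66 ± 0.515 RPM (SD, n = 5), with a log2 fold change of -0.72 ± 0.2 (SE, 95% interval -1.17 to -0.27; limma unadjusted p = 0.0055, adjusted p = 0.977). On 0% grain it had been 7.29 ± 4.19 RPM, and all 5 heifers were lower on 89% than on 0% grain, without passing the threshold (limma adjusted p = 0.0693). As for *FOSB*, this difference from 0% grain was not independent of how the gene was chosen.

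*VNN1* (ENSBTAG00000015094) encodes vanin 1, a pantetheinase that releases cysteamine. It had 2.62 RPM in heifer 172, 1.27 in 294, 4.09 in 246, 1.89 in 362 and 0.999 in 258 on 72% grain, and 2.96, 0.458, 1.87, 0.419 and 0.502 RPM on 89% grain. All heifers but 172 were lower on 89% grain. The means were 2.17 ± 1.24 and 1.24 ± 1.14 RPM (SD, n = 5), and the log2 fold change was -0.56 ± 0.18 (SE, 95% interval -0.95 to -0.16; limma unadjusted p = 0.011, adjusted p = 0.977). The size depended on the scale, with -1.01 at a pseudocount of 0.1, -1.03 in edgeR and -1.09 in DESeq2. The preceding step, from 6.82 ± 4.48 RPM on 0% grain, passed the threshold with the heifer as a block (log2 fold change -1.2, limma adjusted p = 0.0495, lower in 5 of 5 heifers). It missed the threshold with TMM scaling (adjusted p = 0.0548), in edgeR (0.0579), without the block (0.153) and without any 1 of the heifers (0.0592 to 0.125). Nor was that step independent of the choice of *VNN1*, as a gene detected in all heifers on 0% grain only. The mean change from 72% to 89% grain was -0.56 in BG and -0.57 in the other 10 heifers, and the 95% interval of the difference ran from -0.74 to 0.77.

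*CYP1B1* (ENSBTAG00000010531) and *CYP1A1* (ENSBTAG00000001021) encode cytochrome P450 enzymes that are induced through the aryl hydrocarbon receptor. Their identifiers were assigned from directions in the study's lists for its other pH groups. Both genes have the same directions there, so which identifier is which gene is less sure. *CYP1B1* had 8.19 RPM in heifer 172, 11.6 in 294, 11.4 in 246, 17.5 in 362 and 11.7 in 258 on 72% grain, and 17.1, 11.5, 28.1, 18.8 and 21.2 RPM on 89% grain. Heifers 172, 246 and 258 were well above their earlier level, while 294 and 362 were close to it. The mean was 12.1 ± 3.36 and 19.3 ± 6.08 RPM (SD, n = 5), and the log2 fold change was 0.62 ± 0.18 (SE, 95% interval 0.21 to 1.03; limma unadjusted p = 0.00752, adjusted p = 0.977). *CYP1A1* had 71.2 RPM in heifer 172, 127.0 in 294, 92.1 in 246, 104.1 in 362 and 84.3 in 258 on 72% grain, against 82.1, 79.1, 61.5, 138.9 and 81.4 RPM on 89% grain. It was higher in 2 heifers and lower in 3, so that the pair of enzymes did not share a direction in every animal. Its log2 fold change was -0.14 ± 0.15 (SE, 95% interval -0.48 to 0.21; limma adjusted p = 0.977). On 0% grain the mean had been 186.7 ± 93.4 RPM for *CYP1A1* and 33.4 ± 19.6 RPM for *CYP1B1*, and neither step from 0% to 72% grain passed the threshold (limma adjusted p = 0.0866 and 0.0601).

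**Figure D2:**
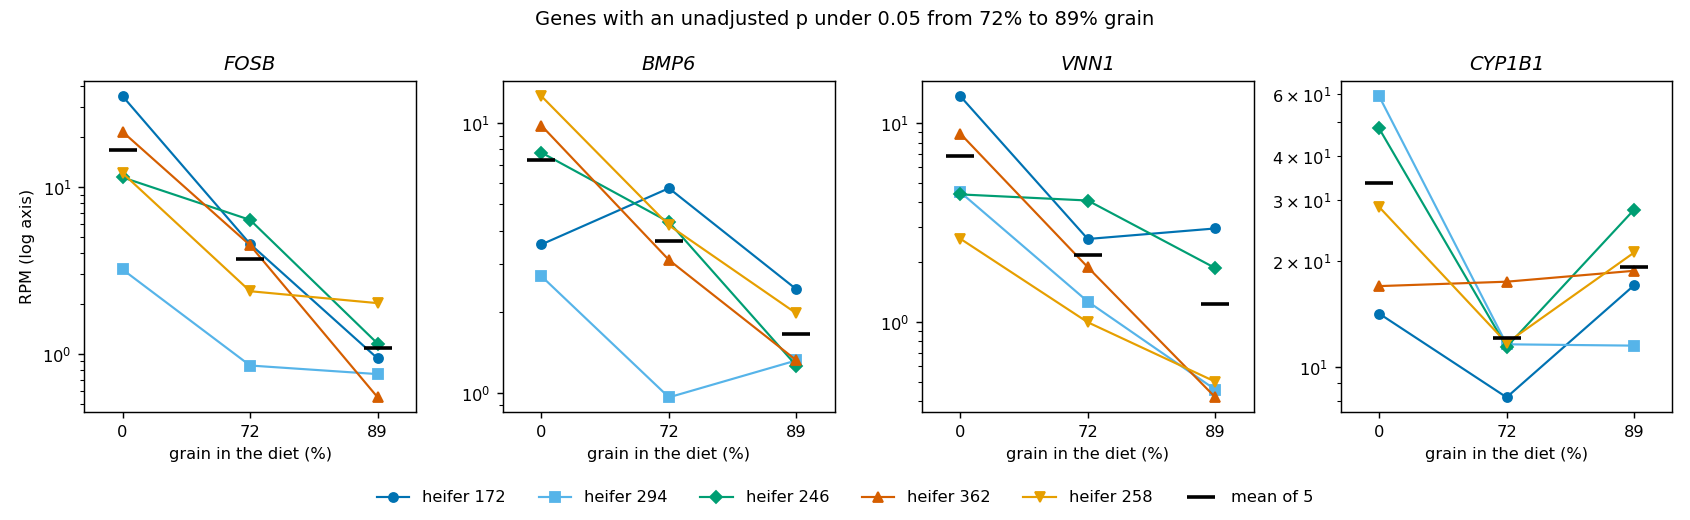
RPM (log axis) of *FOSB*, *BMP6*, *VNN1* and *CYP1B1* in each of the 5 BG heifers on 0%, 72% and 89% grain, with lines joining the samples of a heifer and a bar at the mean of 5. *FOSB* was lower on 89% than on 72% grain in 5 of 5 heifers, *BMP6* and *VNN1* were lower in 4 of 5, and *CYP1B1* was higher in 4 of 5.

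*CDSN* and *KLK10* were higher on 89% grain in some BG heifers and lower in others, and they differed from each other in heifer 294. The identifiers of *CDSN*, *KLK10* and *CHAC1* were assigned as for *CYP1B1* and *CYP1A1*, from directions that these genes share, and are likewise less sure. *CDSN* (ENSBTAG00000021721) encodes corneodesmosin, an adhesion protein that holds cornified cells together. It had 73.1 RPM in heifer 172, 0.991 in 294, 17.4 in 246, 6.1 in 362 and 19.3 in 258 on 72% grain, and 145.5, 7.74, 96.1, 0.258 and 5.88 RPM on 89% grain. Heifers 172, 294 and 246 were thus higher on 89% grain, and heifers 362 and 258 were lower, with heifer 362 down to 8 reads. *KLK10* (ENSBTAG00000015129), a kallikrein-related peptidase, had 3.2 RPM in heifer 172, 6.57 in 294, 1.55 in 246, 11.9 in 362 and 9.62 in 258 on 72% grain, and 6.92, 4.05, 16.4, 3.48 and 4.05 RPM on 89% grain. It was higher in heifers 172 and 246 only. The mean log2 fold change was 0.1 ± 0.53 (SE, 95% interval -1.08 to 1.29; limma adjusted p = 0.996), so the interval spanned more than a doubling in either direction.

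*CHAC1* (ENSBTAG00000010371), which encodes an enzyme that breaks down glutathione and is induced by cell stress, followed the animals in the way *CDSN* did. It had 5.12 RPM in heifer 172, 0.396 in 294, 0.705 in 246, 2.59 in 362 and 7.31 in 258 on 72% grain, and 15.4, 2.0, 16.7, 0.193 and 1.94 RPM on 89% grain. The 3 heifers that were higher were again 172, 294 and 246. Neither *CHAC1* nor *CDSN* passed the filter on low values, and in a fit without the filter their log2 fold changes were 0.56 ± 0.74 and 0.29 ± 0.77 (SE, limma adjusted p = 0.945 and 0.956).

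A gene described as C-X-C motif chemokine 6 (ENSBTAG00000009812), a neutrophil-attracting chemokine, had 3.73 RPM in heifer 172, 1.67 in 294, 2.68 in 246, 4.82 in 362 and 3.97 in 258 on 72% grain. On 89% grain it had 10.9, 4.56, 11, 1.64 and 3.05 RPM. The same 3 heifers were higher and the same 2 lower as for *CDSN*. The log2 fold change was 0.53 ± 0.37 (SE, 95% interval -0.3 to 1.36; limma adjusted p = 0.977). Leaving out a heifer gave 0.24 (without 246) to 0.95 (without 362). Of the 18 genes with a name or description, it was the one whose change in BG differed from that in the other 10 heifers at an unadjusted p under 0.05 (limma p = 0.0359, adjusted p = 0.999), with a mean change on the log2 scale of 0.53 in BG and -0.94 ± 1.47 (SD, n = 10) in the others. The exact permutation test over heifers, two-sided, gave p = 0.0766 for this gene, and p = 0.525 after Benjamini-Hochberg adjustment over the 18 genes.

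**Figure D3:**
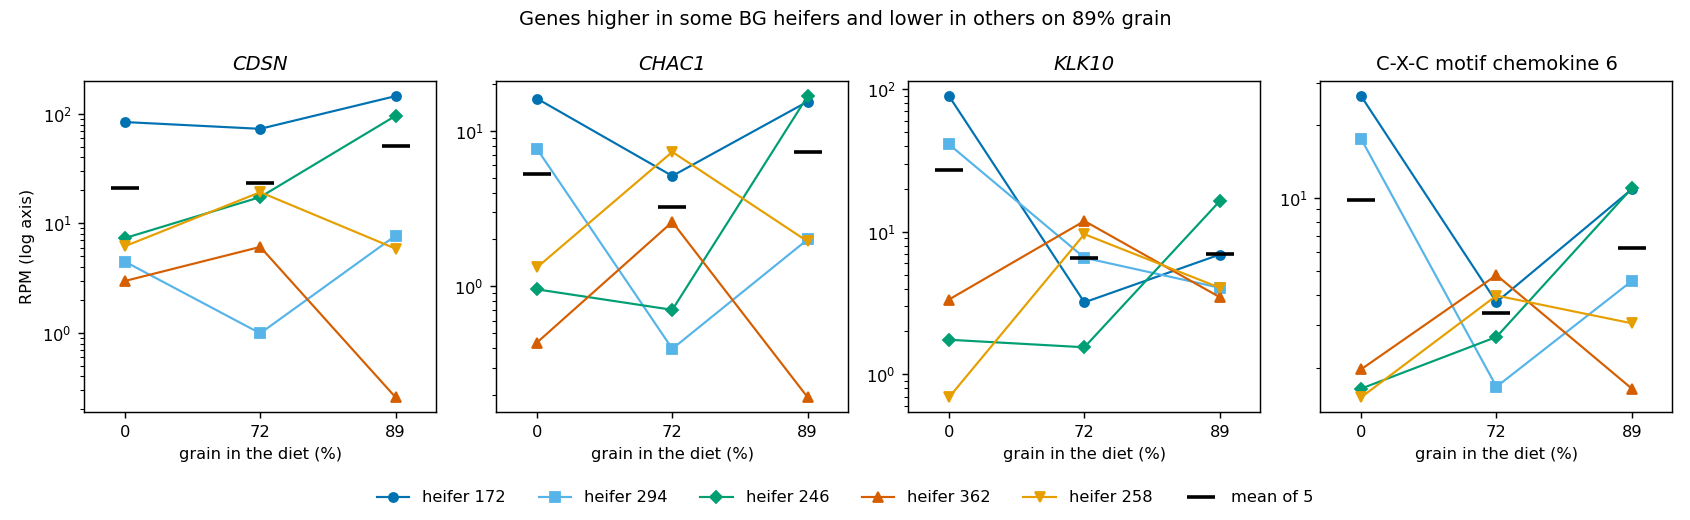
RPM (log axis) of *CDSN*, *CHAC1*, *KLK10* and C-X-C motif chemokine 6 in each of the 5 BG heifers on 0%, 72% and 89% grain, with lines joining the samples of a heifer and a bar at the mean of 5. From 72% to 89% grain, heifers 172 and 246 were higher for each of these genes, heifers 362 and 258 were lower for each, and heifer 294 was higher for all but *KLK10*.

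For the matrix genes *LOXL2* and *CTGF* no change from 72% to 89% grain was detectable. *LOXL2* (ENSBTAG00000006214) encodes a lysyl oxidase that cross-links collagen, and *CTGF* (ENSBTAG00000006367) encodes a matricellular protein. *LOXL2* had 5.2 RPM in heifer 172, 3.99 in 294, 5.36 in 246, 4.62 in 362 and 7.21 in 258 on 72% grain, and 5.08, 7.6, 4.24, 2.93 and 3.23 RPM on 89% grain. Only heifer 294 was higher on 89% grain (log2 fold change -0.2 ± 0.22, SE, 95% interval -0.68 to 0.29; limma adjusted p = 0.977). Between the earlier diets *LOXL2* rose from 2.06 ± 0.8 RPM (0% grain) to 5.28 ± 1.21 RPM (72% grain; SD, n = 5), in 5 of 5 heifers (log2 fold change 1.06, limma adjusted p = 0.0198). That call was lost without the block (adjusted p = 0.0653) and without heifer 294, 246 or 258 (0.0526 to 0.0844). The study names *LOXL2* and *CTGF* as detected in all heifers on 72% grain only. That choice used these same samples, so higher values on 72% grain were not independent of it. *CTGF* averaged 5.81 ± 2.27 RPM with 72% and 6.16 ± 2.53 RPM with 89% grain (SD, n = 5) and was higher in 3 of the 5 (limma adjusted p = 0.99).

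*BOLA-A* (ENSBTAG00000005182), a classical MHC class I gene that presents peptides to T cells, had the smallest standard error of the change among the named genes. It had 6.15 RPM in heifer 172, 10.6 in 294, 7.82 in 246, 11.3 in 362 and 9.09 in 258 on 72% grain, and 7.21, 13.1, 8.21, 11.4 and 8.65 RPM on 89% grain. The order of the heifers was nearly kept between the diets, and the interval of the change was narrow (log2 fold change 0.1 ± 0.1, SE, 95% interval -0.12 to 0.32; limma adjusted p = 0.977). MHC class I genes are close copies of one another, and reads could have been split among them in the authors' counting.

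The remaining named genes had no direction that all 5 heifers shared. *RASL1A* (ENSBTAG00000005244) ranged from 0.843 RPM in heifer 258 to 18.4 RPM in heifer 362 on 72% grain and from 1.22 to 16.9 RPM in the same animals on 89% grain. *ABCG1* (ENSBTAG00000021272), a transporter that exports cholesterol to lipoproteins, averaged 5.88 RPM on both diets (SD 3.12 and 4.48, n = 5), being highest in heifer 362 and lowest in heifer 172 on 72% grain. *CDHR2* (ENSBTAG00000025340), a protocadherin of the brush border, was lower on 89% grain in heifers 172, 294 and 246 and higher in 362 and 258, with means of 6.34 ± 3.34 and 5.18 ± 2.63 RPM (SD, n = 5). This was the reverse of the direction of *CDSN* in every animal. *LIFR* (ENSBTAG00000010423), the receptor of leukemia inhibitory factor, was higher in 4 of 5 heifers (5.46 ± 2.0 and 6.45 ± 2.33 RPM, SD, n = 5). *CXorf57* (ENSBTAG00000003668) went from 9.18 to 1.65 RPM in heifer 258 and from 8.39 to 19.0 RPM in heifer 246. An uncharacterized gene (ENSBTAG00000009144) ranged from 0.843 RPM in heifer 258 to 36.8 RPM in heifer 294 on 72% grain and was higher on 89% grain in all heifers but 294. The limma adjusted p of these genes ranged from 0.977 to 0.994.

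The genes with the smallest p had no name in the sources used here and are given by their identifiers. The smallest p belonged to ENSBTAG00000019822, which had 18.4 RPM in heifer 172, 5.18 in 294, 11.2 in 246, 4.82 in 362 and 7.81 in 258 on 72% grain, and 6.63, 2.4, 5.91, 0.645 and 3.09 RPM on 89% grain. Every heifer had less than on 72% grain, with values of the diets that overlapped (log2 fold change -1.19 ± 0.16, SE, limma unadjusted p = 2.73e-05, adjusted p = 0.315). ENSBTAG00000023026, an abundant transcript, had 120.1, 144.0, 165.1, 78.8 and 130.5 RPM on 72% grain and 87.3, 86.2, 103.7, 33.5 and 87.9 RPM on 89% grain in the same order of heifers. It too was lower in all 5 (log2 fold change -0.73 ± 0.1, SE, limma unadjusted p = 6.13e-05, adjusted p = 0.353). DESeq2 called both. Their mean changes in the other 10 heifers, -0.92 and -0.45 on the log2 scale, had the same sign as in BG.

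In the other direction, 2 genes were more than 1.5-fold higher and higher in all 5 heifers, and 11 were lower by these criteria. ENSBTAG00000038662 had 6.92, 21.6, 2.22, 20.3 and 13.1 RPM on 72% grain and 12.0, 28.3, 9.67, 27.3 and 19.3 RPM on 89% grain (log2 fold change 0.75 ± 0.18, SE, limma adjusted p = 0.977). It was also higher in 9 of the other 10 heifers. ENSBTAG00000037778 had 0.779, 0.736, 1.41, 2.06 and 2.28 RPM on 72% grain and 4.15, 1.94, 4.89, 2.35 and 2.51 RPM on 89% grain (log2 fold change 0.76 ± 0.22, SE, limma adjusted p = 0.977). Its difference was large in heifers 172, 294 and 246 and small in heifers 362 and 258, and DESeq2 gave 1.15. In the other 10 heifers it was higher in 4 and lower in 6, with a mean change of -0.35 ± 0.98 on the log2 scale (SD, n = 10).

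The genes that the study lists as changed from 72% to 89% grain in its other groups, the down group (DG) with falling and the up group (UG) with rising ruminal pH, were then followed in BG. The lists were chosen on the other 10 heifers, so the BG values took no part in choosing them. The genes higher in UG were mostly higher in BG as well. Of 122 such genes 109 were tested, and 94 of these (86.2%) were higher on 89% grain in BG, as compared with 51.5% of all genes tested. None passed the threshold, while 54 were higher at an unadjusted p under 0.05 (49.5%, as compared with 3.13% of all genes) and 34 were higher in all 5 heifers (31.2%, as compared with 3.6%). The median log2 fold change in BG was 0.28, and the median within a heifer was 0.19 in 172, 0.32 in 294, 0.23 in 246, 0.19 in 362 and 0.49 in 258. Each heifer was therefore above its median over all genes, which lay between -0.031 and 0.046. Leaving out heifer 258 or 294 lowered the count of 54 to 27 and 35, and a fit without the heifer block lowered it to 25. All BG samples on 89% grain were taken later than those on 72% grain, as in UG.

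The genes lower in UG did not follow a shared direction. Of 163 genes 154 were tested, of which 86 were higher and 68 lower in BG, with a median log2 fold change of 0.03. The median was 0.16 in heifer 172, 0.27 in 294 and 0.54 in 246, but -0.34 in 362 and -0.44 in 258. Heifers 172, 294 and 246 were thus on the opposite side of 0 from heifers 362 and 258, as for *CDSN* and *CHAC1*. *CYP1A1* and *ABCG1* divided the animals otherwise, being higher in heifers 172 and 362 only. The study lists *CDSN* and *CHAC1* themselves as lower in UG, so their likeness to this list was not independent of it. At an unadjusted p under 0.05 there were 0 higher and 13 lower genes, and without heifer 258 there were 35 higher and 14 lower. The 13 were 8.44% of the tested genes, as compared with 1.47% of all genes. Without heifer 294 there were 0 higher and 23 lower, and without heifer 362 there were 10 and 9. The median ranged from -0.09 without heifer 246 to 0.15 without heifer 258.

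For the genes listed as higher in DG (17 of 22 tested), the median was 0.92 in heifer 172, 0.44 in 294 and 1.03 in 246, and -0.29 in 362 and -0.32 in 258. The division of the animals was the same, and *CDSN*, *CHAC1* and *KLK10* are on both lists. Over the 5 heifers the median log2 fold change was 0.35, with 14 of the 17 genes higher (82.4%, as compared with 51.5% of all genes) and 5 higher at an unadjusted p under 0.05 (29.4%, as compared with 3.13%). The median was 0.17 without heifer 246 and 0.55 without heifer 362. The count of 5 was 2 without heifer 172 and without the block, 3 without heifer 246 and 9 without heifer 362. The genes listed as lower in DG (40 of 45 tested) had a median log2 fold change of -0.16, with 28 lower and 11 lower at an unadjusted p under 0.05 (27.5%, as compared with 1.47% of all genes). Their median was below 0 in 4 heifers and 0.24 in heifer 294, and it was -0.29 without that heifer. The count of 11 was 6 without heifer 172, 7 without heifer 246 or 362, and 5 without the block.

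**Figure D4:**
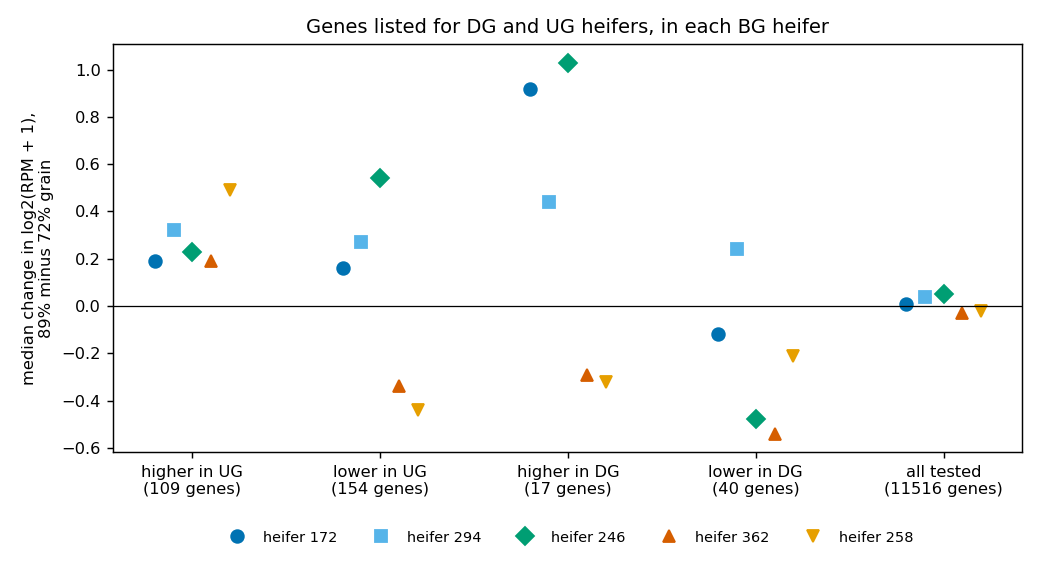
Median change in log2(RPM + 1) from 72% to 89% grain in each of the 5 BG heifers, for the tested genes of the lists of UG and DG and for all tested genes. For the genes higher in UG all 5 heifers lie between 0.19 and 0.49, whereas for the genes lower in UG and higher in DG heifers 172, 294 and 246 lie above 0 and heifers 362 and 258 below.

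The change differed from heifer to heifer across all genes too. Between 356 genes (heifer 172, 3.09%) and 953 genes (heifer 246, 8.28%) differed by more than 1.5-fold between the diets within an animal, as compared with the 38 genes whose mean change was that large. Genes higher on 89% grain were the majority in heifers 294 (503 higher and 150 lower), 246 (609 and 344) and 172 (192 and 164), while genes lower were the majority in heifer 362 (403 and 511) and heifer 258 (161 and 218). These counts are on RPM without further scaling. The TMM scaling factors rose from 72% to 89% grain in heifers 294 (1.006 to 1.032), 246 (0.998 to 1.03) and 172 (0.988 to 0.994). They fell in heifers 362 (1 to 0.979) and 258 (0.997 to 0.977). Whether the majorities hold with TMM scaling was not tested. Across the 11516 genes, which are not independent replicates, the correlation of the changes of 2 heifers ranged from -0.2 (172 and 258) to 0.34 (172 and 246) with a median of -0.04, and 5 of the 10 pairs were below 0. The pair 362 and 258 had 0.13 and the pair 294 and 246 had 0.2.

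The size of the change in BG was compared with that in the other 10 heifers. The median absolute change in log2(RPM + 1) over the tested genes was 0.125 in heifer 172, 0.175 in 294, 0.189 in 246, 0.187 in 362 and 0.144 in 258. The mean was 0.164 ± 0.028 (SD, n = 5) in BG and 0.188 ± 0.054 (SD, n = 10) in the others, which ranged from 0.132 to 0.298. The groups overlapped, and 3 of the other heifers (262, 352 and 286) were above every BG heifer. The difference of -0.024 between BG and the pooled 10 was within the spread between animals (exact permutation test over all 3003 splits, two-sided, p = 0.393).

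**Figure D5:**
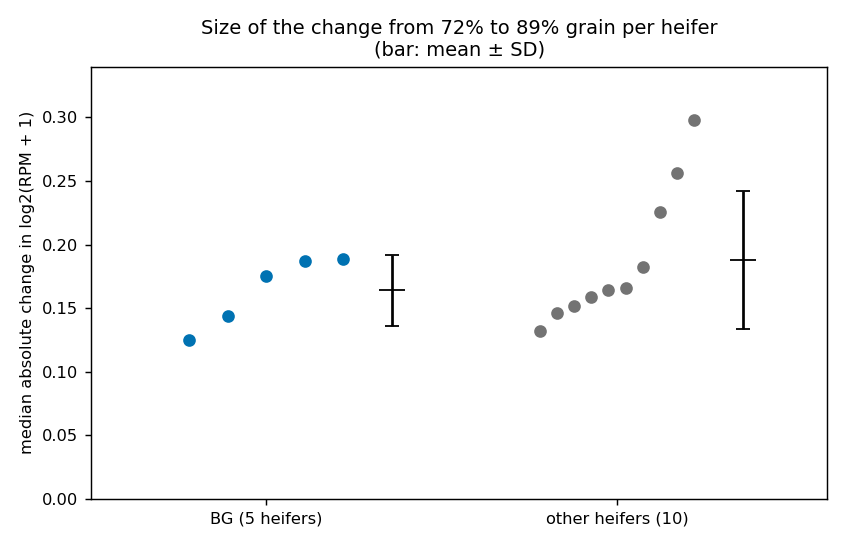
Median absolute change in log2(RPM + 1) over 11516 genes from 72% to 89% grain in each heifer, with mean ± SD beside the points. The 5 BG heifers lie between 0.125 and 0.189, within the range of 0.132 to 0.298 of the other 10 apart from heifer 172.

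Gene by gene, no difference between the change in BG and that in the other 10 heifers passed the threshold (0 of 11516 genes, 0.0%, in limma with the heifer as a block, and 0 in edgeR and DESeq2). The smallest adjusted p was 0.999 in limma, 0.0878 in DESeq2, 0.0659 in limma without heifer 172 and at least 0.959 under each other alternative. At a limma unadjusted p under 0.05 there were 327 genes (2.84%), of which 276 had a higher change in BG and 51 a lower one. This direction depended on scaling, since TMM scaling of the RPM gave 165 and 139.

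Within BG, on RPM without further scaling, the change from 0% to 72% grain was larger than the later one in 4 of 5 heifers. On this scale the median log2 fold change over all genes was 0.0889 from 0% to 72% grain and 0.004 from 72% to 89% grain. The sizes of the steps were not repeated with TMM scaling. The median absolute change per heifer was 0.218 ± 0.036 (SD, n = 5) from 0% to 72% grain and 0.164 ± 0.028 from 72% to 89% grain, with 0.173 against 0.187 in heifer 362 (exact two-sided sign-flip test, p = 0.125, n = 5, where 5 pairs allow no p under 0.0625). From 0% to 72% grain 166 genes (1.44%) passed the threshold, 144 higher (1.25%) and 22 lower (0.191%) on 72% grain. With TMM scaling there were 69, of which 48 were higher. Without heifer 294, 246, 172 or 258 there were 0, 1, 23 and 31 genes, and without heifer 362 there were 240. From 0% to 89% grain the median absolute change was 0.247 ± 0.032 (SD, n = 5), larger than from 72% to 89% grain in 5 of 5 heifers. There 2301 genes had a limma unadjusted p under 0.05, against 2724 from 0% to 72% grain. Only 1 gene (0.00868%) passed the threshold from 0% to 89% grain, ENSBTAG00000008203, with 111.8 ± 29.1, 211.5 ± 13.8 and 252.5 ± 47.4 RPM on the 3 diets (SD, n = 5; limma adjusted p = 0.0118). From 72% to 89% grain it was higher in 5 of 5 heifers without passing (limma adjusted p = 0.977), and its call from 0% grain was lost without heifer 172, 246 or 258 (adjusted p = 0.0567 to 0.0702).

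The genes called from 0% to 72% grain were on average near their 72% grain level on 89% grain. The 144 higher genes had a median log2 fold change of 0.77 from 0% to 72% grain, -0.03 from 72% to 89% grain and 0.75 from 0% to 89% grain. For the 22 lower genes the medians were -0.85, 0.07 and -0.81. These comparisons share samples, and the genes were chosen on the 72% grain values, which enter the later step as well.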

How the data were processed

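Ruminal papillae RNA was sequenced with poly(A) libraries that do not mark strand (TruSeq mRNA). The authors demultiplexed reads with CASAVA 1.8, aligned them to the bovine UMD 3.1 genome with TopHat2 2.0.10, counted reads per Ensembl gene with htseq-count, and deposited a file of RPM for every sample, the number of reads on each gene per 1000000. Every column summed to 1000000, and 100% of values were whole multiples of a single read (within 0.001 of a read), from which reads were recovered. Intervals and depth therefore cover reads, not molecules. The recovered totals are above the reads per library that the study gives, and the unit counted is not given in the sources used here, which bears on edgeR and DESeq2.

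Heifers and diets came from the sample titles and the BG heifers from their animal numbers, with the pH of the group from the study. The heifers, lists and tests were chosen with earlier results of these data known. No pair of the 15 BG samples was a duplicate (smallest chi-square per degree of freedom 20.86 over 105 pairs).

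The 11516 genes above RPM 1 in each of the 15 heifers, on 1 or more diets, were fitted with limma 3.58.1 (R 4.3.3) on log2(RPM + 1), so that changes of low genes are understated, with a variance trend and the heifer as a block. Genes were called below an adjusted p of 0.05 (Benjamini-Hochberg) with more than 1.5-fold change. The difference from the other 10 heifers was an interaction in 1 fit of 30 samples. The labels do not divide those heifers. The study lists 2 pH groups of them by animal number, but they were pooled here. A pooled mean can hide changes that differ between those groups. The routine was also run on simulated reads drawn independently for each gene, and no result here rests on that run. Pairing was by animal, as the labels give it: deviations from the diet means correlated at 0.213 to 0.487 within a heifer (5 pairs) and at a median of -0.116 between heifers (20 pairs). Subtracting the diet means by itself draws the values between heifers below 0 where those within a heifer are above 0. Alternatives were edgeR and DESeq2 on the recovered reads, other scalings, pseudocounts, filters and variance models, no block, and each heifer left out. Single values were compared by exact permutation of heifers (Python 3.11.15, scipy 1.17.1).

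Named genes were those that the study pairs with an identifier (or, for *CYP1A1*, *CYP1B1*, *CHAC1*, *CDSN* and *KLK10*, whose identifiers were assigned from the directions in its DG and UG lists), and the genes with the smallest p among those over 1.5-fold and in the same direction in all 5 heifers. Several of the assigned genes share the same directions, so which identifier is which gene is less sure for them. The files do not pair identifiers with symbols, and the reference table matched 0 of the identifiers. The 31 lists of pathway genes and cell type markers, the tissue check by markers and the genes crossing other comparisons without an identifier were therefore not analysed here, and neither were ruminal pH, sequences and sequencing lanes.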

Additional observations from a re-analysis of the deposited data

Results flagged for a closer look

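In 6 of 73 groups of 5 BG values, for the 18 genes with a name or description on the 3 diets, for their changes from 72% to 89% grain and for the size of the change, 1 sample stood farther from the rest than Dixon's ratio of 0.71 allows. For independent, normally distributed values chance gives about 1 in 20 such groups. These were mostly RPM without a log scale, from the same genes and heifers, so 6 of 73 cannot be set against that rate. *CXorf57* (ENSBTAG00000003668) had 19.0 RPM in heifer 362 on 72% grain, where the other heifers had 5.18 to 9.18 RPM. *CYP1A1* (ENSBTAG00000001021) had 138.9 RPM in heifer 362 on 89% grain and 61.5 to 82.1 RPM in the others. *CDSN* (ENSBTAG00000021721) had 84.3 RPM in heifer 172 on 0% grain, where the others had 2.98 to 7.34 RPM, and 73.1 RPM in the same heifer on 72% grain, where the others had 0.991 to 19.3 RPM. *KLK10* (ENSBTAG00000015129) had 16.4 RPM in heifer 246 on 89% grain, where the others had 3.48 to 6.92 RPM. For an uncharacterized gene (ENSBTAG00000009144), the change from 72% to 89% grain was -1.0 on the log2 scale in heifer 294 and 0.28 to 0.74 in the others.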

How the results depend on the processing

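The count of 0 genes between 72% and 89% grain in BG held without the replicate block (0 genes, 261 at an unadjusted p under 0.05 against 530), under both other scalings, both other pseudocounts, without the filter, with the filter applied within BG, without a variance trend, with robust eBayes, without a fold change minimum, in edgeR and in the fit of all 45 samples. It became 8 in DESeq2 and ranged from 0 to 1 when a heifer was left out. The 1 gene, called without heifer 258 and named here after its values were seen, was ENSBTAG00000017718 (1.83 ± 1.16 RPM on 72% and 8.09 ± 4.93 RPM on 89% grain, SD, n = 5, higher in 4 of 5 heifers). Of the genes at an unadjusted p under 0.05, 68.1% were higher on 89% grain; without heifer 294 this was 45.2%, without 246 58.4%, and without 172, 362 and 258 it was 71.9%, 76.0% and 66.2%. The difference from the other 10 heifers gave 0 genes under each alternative, while 84.4% of its genes at an unadjusted p under 0.05 had a higher change in BG, against 54.3% with TMM scaling, 58.9% with median-of-ratios scaling, 54.7% in edgeR and 59.0% in DESeq2. The size of the change kept its direction and its side of the threshold under each alternative.

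Without the replicate block, the count from 0% to 72% grain was 16 and that from 0% to 89% grain was 5. With alternatives chosen after seeing the data, the former was 59 in edgeR and 69 with TMM scaling. Leaving out a heifer gave 0 to 240 and 0 to 5. Of 372 values of single genes under an alternative, 359 kept their direction and side of the threshold. *FOSB* (-1.66) and both lower identifiers passed it in DESeq2. When a heifer was left out, the direction turned for *CTGF* (log2 fold change 0.06, range -0.09 to 0.28), *CXorf57* (-0.18, range -0.49 to 0.26), *ABCG1* (-0.05, range -0.19 to 0.22), *CDHR2* (-0.23, range -0.48 to 0.05) and *KLK10* (0.1, range -0.57 to 0.51, and -0.01 in edgeR). The cause was not tested. The genes beyond 1.5-fold were 38, against (counted after seeing the data) 77 with a pseudocount of 0.1, 83 in edgeR and 85 in DESeq2. *LOXL2* (ENSBTAG00000006214) ranged from -0.44 without heifer 294 to -0.01 without heifer 258. *CDSN* and *CHAC1* had a value only without the filter. The alternatives for marker sums were not run. At the lowest depth of 24.4 M reads (M, 1000000 reads) RPM 1 stood for 24.4 reads.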
